A study of Homo sapiens with 6 samples.

Results

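Hyaluronan genes were examined in gastric cancer cells with and without SCAMP1 knockdown. The set held 9 protein-coding genes out of the 58735 genes in the expression table. It comprised the hyaluronan synthases HAS1, HAS2 and HAS3, the hyaluronidases HYAL1, HYAL2 and HYAL3, the hyaluronan-degrading protein CEMIP, and the receptors CD44 and HMMR. The genes were chosen by family membership around HAS2, which itself had been selected on its FPKM difference between these same libraries, so the values of the 9 genes in this comparison are given as a description. How many of them pass the thresholds applied to all genes is listed once, and nothing is read from it.

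The libraries came from NCI-N87, an established gastric carcinoma cell line, and all cells were infected with lentivirus and selected with puromycin (2 μg/ml) as stable populations. The control cells carried the vector named shNC (3 libraries), which the study describes as the empty vector, and the knockdown cells carried the shRNA named shScamp1 against SCAMP1, a membrane protein of endosomes and secretory vesicles (3 libraries). Total RNA was harvested at about 80% confluence. A single shRNA in a single cell line was sequenced, and the labels call the samples biological replicates without stating whether they came from separate infections, so the p-values below measure only the spread between these samples.

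Hyaluronan is a long, unsulfated sugar polymer of the extracellular matrix. It is built at the plasma membrane by the HAS enzymes from UDP-glucuronic acid and UDP-N-acetylglucosamine and is pushed out of the cell as it grows. Hyaluronidases and CEMIP take part in its breakdown, and cells bind it mainly through CD44, while HMMR has a role both in hyaluronan binding and at the mitotic spindle. In epithelial tumours, a hyaluronan-rich matrix is known for its links to cell movement and growth.

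Expression was measured as FPKM, that is, fragments per kilobase of gene length and scaled to library size. The number of reads behind each value was recovered from the table, with totals of 15064905 to 15988700 reads on genes in the shNC libraries and 14311769 to 14667628 in the shScamp1 libraries. SCAMP1 was at 12.1 ± 0.562 FPKM (SD, n = 3) in shNC cells and at 1.69 ± 0.311 FPKM in shScamp1 cells, a log2 fold change of -2.78 (SE 0.14, Benjamini-Hochberg adjusted p = 0.000248 by limma). shScamp1 replicate 2 stood apart from the other libraries, with 9.21% mitochondrial reads against 6.09% to 6.78% in the others, and its correlation with the other shScamp1 libraries was 0.926 and 0.931 against 0.953 between those. Of 8 gastric epithelial markers, 7 were tested, 5 were higher in shScamp1 cells and 0 lower (71.4% called, against 14.0% of all 15556 genes tested), with a summed level of 4328 to 4545 FPKM in shNC and 7906 to 8635 FPKM in shScamp1 libraries. The 5 were the keratins KRT8, KRT18 and KRT19, the junction protein CLDN4 and E-cadherin (CDH1), whereas EPCAM was at 153 ± 3.35 and 148 ± 6.45 FPKM and TFF1 was listed at 0. Of the 8 fibroblast markers only COL1A1 had enough signal to be tested, COL1A2, LUM and DCN were listed at 0, and the summed level was 0.597 to 0.722 FPKM in shNC and 0.659 to 0.816 FPKM in shScamp1 libraries. The 4 endothelial markers summed to 0.139 to 0.235 and 0.381 to 0.612 FPKM, nearly all of it VWF. The 5 leukocyte markers summed to 1.38 to 1.45 and 1.09 to 2.28 FPKM, mostly LYZ, which gastric epithelium also makes. In bulk RNA of this kind, fewer cells that express a gene and less RNA per cell cannot be told apart.

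HAS2 was the hyaluronan gene with the widest difference between the groups. HAS2 (ENSG00000170961, chromosome 8 from 121612116 to 121641390 on the reverse strand of GRCh38) encodes the synthase best known for making long hyaluronan chains. Its level was 1.11, 0.917 and 1.22 FPKM in the shNC libraries, from 74, 64 and 79 reads. In the shScamp1 libraries HAS2 was at 9.33, 9.01 and 10.2 FPKM, from 571, 517 and 624 reads. All 3 shScamp1 libraries were far above all 3 shNC libraries, and replicate 2 was close to its group. The mean was 1.08 ± 0.154 FPKM (SD, n = 3) in shNC cells and 9.51 ± 0.603 FPKM in shScamp1 cells, which is 8.77-fold higher, and the fitted log2 fold change was 3.03 (SE 0.12). Among all protein-coding genes in a library, HAS2 moved from the 46.5 to 48.9 percentile of FPKM in shNC libraries to the 77.7 to 79.3 percentile in shScamp1 libraries.

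HAS2-AS1 (ENSG00000248690), an antisense RNA transcribed from the opposite strand, shares 201 exonic bases with HAS2, or 4.80% of the exonic length of HAS2. It had 2, 4 and 10 reads in the shNC libraries and 19, 15 and 18 reads in the shScamp1 libraries, which is 0.0956 ± 0.0776 and 0.342 ± 0.0295 FPKM (SD, n = 3). The groups did not overlap, but the gene was below the 0.5 FPKM mean required for testing. The sources used here do not state whether counting used strand, so reads in the shared bases cannot be told apart between these genes.

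The other synthases were low, and HAS1 was near the limit of what these libraries can measure. HAS3 (ENSG00000103044, chromosome 16 from 69105564 to 69118719, forward strand), the synthase linked to shorter hyaluronan chains, was at 0.441, 0.386 and 0.269 FPKM in shNC libraries and 0.259, 0.276 and 0.323 FPKM in shScamp1 libraries, from 20 to 37 reads. Its groups overlapped, with means of 0.365 ± 0.0878 and 0.286 ± 0.0332 FPKM (SD, n = 3). HAS1 (ENSG00000105509, chromosome 19 from 51713112 to 51723994, reverse strand) had 5, 4 and 4 reads in shNC libraries and 5, 2 and 2 reads in shScamp1 libraries, or 0.121 ± 0.0175 and 0.0930 ± 0.0518 FPKM (SD, n = 3). A count of 3 reads on HAS1 corresponds to 0.0803 to 0.0978 FPKM. The level of HAS1 thus rests on a few reads, and a difference in it cannot be judged at this depth. Both genes fell below the 0.5 FPKM mean and were not tested. HAS3 also shares 365 exonic bases (6.90%) with CHTF8 on the opposite strand, which was far more abundant at 30.7 ± 1.16 and 30.9 ± 3.10 FPKM.

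Summed over the 3 synthases, the HAS transcript level was 1.57 ± 0.146 FPKM (SD, n = 3; 1.41 to 1.70) in shNC cells and 9.89 ± 0.617 FPKM (9.35 to 10.6) in shScamp1 cells. HAS2 held 68.9% ± 6.17 of that sum in shNC libraries and 96.2% ± 0.337 in shScamp1 libraries. The share of HAS3 was 23.4% ± 5.77 and 2.89% ± 0.208, and that of HAS1 was 7.70% ± 0.557 and 0.947% ± 0.541. HAS2 was thus the most abundant synthase transcript in both groups.

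**Figure D1:**
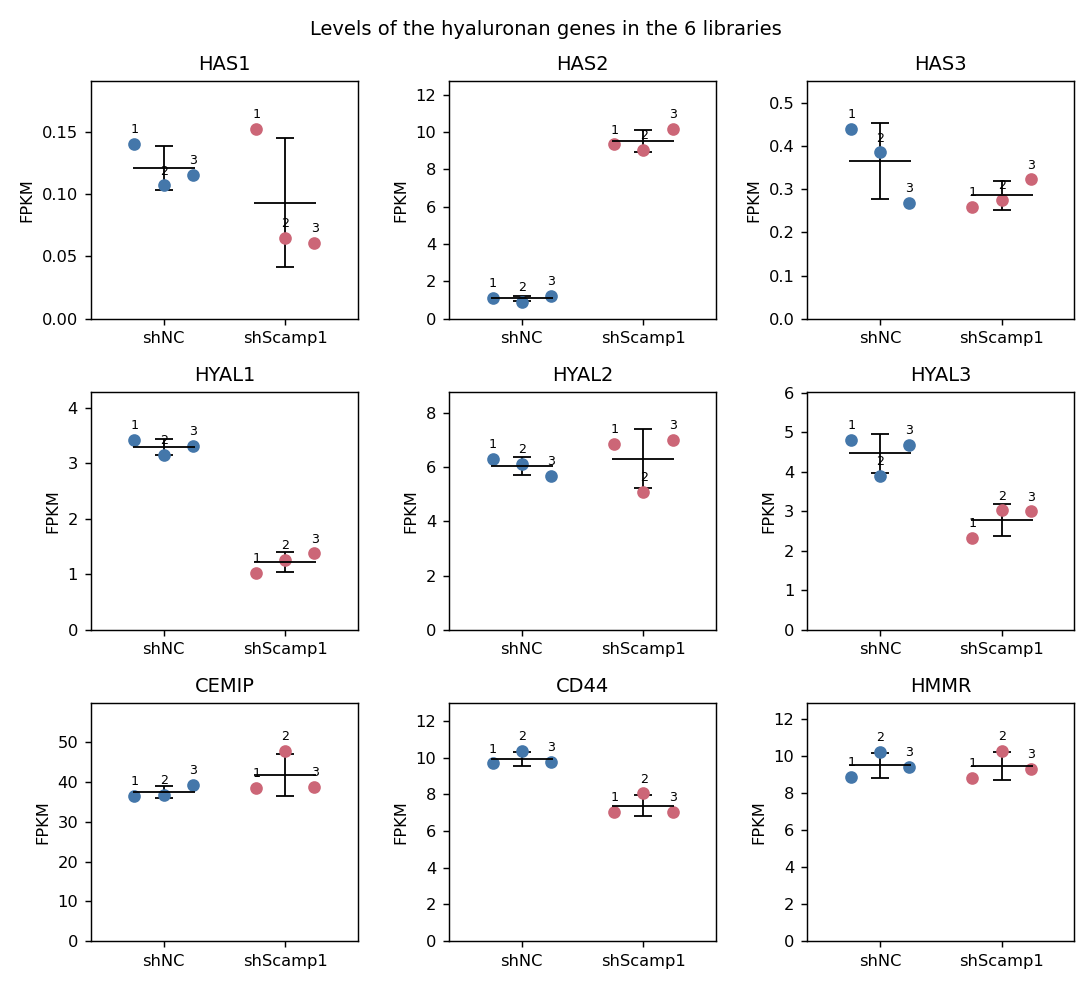
Level of each of the 9 hyaluronan genes in FPKM (vertical axis, a separate linear scale from 0 for each gene) in the 3 shNC and 3 shScamp1 libraries. Points are libraries with their replicate number, horizontal bars are group means and error bars are SD. HAS2 is the only gene of the 9 with all shScamp1 libraries above all shNC libraries (9.01 to 10.2 against 0.917 to 1.22 FPKM), HYAL1, HYAL3 and CD44 have all shScamp1 libraries below, and the groups of the other 5 overlap.

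The hyaluronidase genes HYAL1, HYAL2 and HYAL3 lie next to each other on the reverse strand of chromosome 3, within 30.1 kb, yet their levels in shScamp1 cells were unlike. HYAL1 and HYAL3 were lower than in shNC cells, whereas the groups overlapped for HYAL2. Their promoters are printed so that the 3 neighbours can be compared letter by letter. Each sequence is the 250 bases before an annotated start of the gene in RefSeq (GRCh38.p14), read 5′ to 3′ on the reverse strand. Capitals mark GC boxes (GGGCGG, or CCGCCC on the other strand), which bind SP-family factors; 42.6% of 35116 promoter windows of this length hold at least 1. HYAL1 is at chr3:50303575-50303824, HYAL2 at chr3:50322746-50322995, and HYAL3 has an upstream window at chr3:50299406-50299655 and a downstream one at chr3:50298861-50299110.
HYAL1: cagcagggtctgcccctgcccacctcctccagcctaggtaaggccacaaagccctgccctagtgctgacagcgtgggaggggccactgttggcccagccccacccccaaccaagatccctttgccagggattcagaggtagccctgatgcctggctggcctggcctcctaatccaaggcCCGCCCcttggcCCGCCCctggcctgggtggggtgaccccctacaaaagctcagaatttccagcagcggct
HYAL2: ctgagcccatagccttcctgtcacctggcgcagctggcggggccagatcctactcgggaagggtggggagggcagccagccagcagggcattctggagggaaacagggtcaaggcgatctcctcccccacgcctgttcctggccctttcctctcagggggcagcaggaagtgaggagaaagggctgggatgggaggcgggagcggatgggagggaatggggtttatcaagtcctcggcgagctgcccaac
HYAL3 upstream: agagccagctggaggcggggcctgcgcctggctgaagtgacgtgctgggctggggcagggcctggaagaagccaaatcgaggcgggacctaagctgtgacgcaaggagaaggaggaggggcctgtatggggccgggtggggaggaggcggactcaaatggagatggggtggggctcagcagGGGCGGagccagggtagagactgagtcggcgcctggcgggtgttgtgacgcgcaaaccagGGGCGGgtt
HYAL3 downstream: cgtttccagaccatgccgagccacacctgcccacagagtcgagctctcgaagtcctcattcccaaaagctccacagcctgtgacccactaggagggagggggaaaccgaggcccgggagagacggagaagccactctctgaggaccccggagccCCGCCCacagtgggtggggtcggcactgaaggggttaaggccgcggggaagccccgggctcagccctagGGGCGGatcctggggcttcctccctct
The HYAL1 window holds 2 GC boxes, at -71 and -59 from the start, and each HYAL3 window holds 2, at -69 and -9 and at -96 and -27. The HYAL2 window holds 0 of these 6-base matches. GC boxes were also in the windows of CEMIP (3), HMMR (1), HAS1 (1) and HAS3 (1), whose groups overlapped, and of CD44 (2), which was lower. A link between these motifs and the levels was not tested. The HYAL1 window, the downstream HYAL3 window and the windows of CD44, HMMR and HAS3 lie wholly inside the GENCODE 29 spans of their genes. CpG pairs number 4 in the HYAL1 window, 9 in that of HYAL2, and 15 and 14 in those of HYAL3, although all of them are between 64.8% and 67.6% G or C.

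HYAL1 (ENSG00000114378, chromosome 3 from 50299889 to 50312381) encodes an acid-active hyaluronidase found in lysosomes and serum. It was at 3.42, 3.14 and 3.31 FPKM in shNC libraries and at 1.03, 1.26 and 1.37 FPKM in shScamp1 libraries, from 160 to 170 and from 47 to 63 reads. The highest shScamp1 library was below the lowest shNC library by a wide margin. The means were 3.29 ± 0.141 and 1.22 ± 0.177 FPKM (SD, n = 3), which is 2.70-fold lower in shScamp1 cells, with a log2 fold change of -1.37 (SE 0.13). HYAL1 shares no exonic bases with another gene in GENCODE 29.

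HYAL3 (ENSG00000186792, chromosome 3 from 50292831 to 50299468) is a related hyaluronidase-like protein whose own enzymatic activity is less well established. It was at 4.82, 3.90 and 4.69 FPKM in shNC libraries and at 2.33, 3.02 and 3.00 FPKM in shScamp1 libraries. The groups were apart, with means of 4.47 ± 0.495 and 2.78 ± 0.394 FPKM (SD, n = 3), a 1.61-fold lower level with a log2 fold change of -0.67 (SE 0.14). HYAL3 shares 248 exonic bases (12.2% of its exonic length) with NAA80 on the same strand, so some reads cannot be assigned to either with certainty. NAA80, the enzyme that acetylates the end of actin, was at 3.84 ± 0.459 and 2.14 ± 0.555 FPKM and was also lower (log2 fold change -0.84, SE 0.20, Benjamini-Hochberg adjusted p = 0.0434 by limma). The NAA80 call was lost without any 1 of the shNC libraries or without shScamp1 replicate 3 (adjusted p from 0.0920 to 0.150). A further 43 exonic bases of HYAL3 lie in IFRD2, at 21.9 ± 0.247 and 19.0 ± 1.63 FPKM (log2 fold change -0.21, adjusted p = 0.140 by limma).

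HYAL2 (ENSG00000068001, chromosome 3 from 50317790 to 50322906) encodes a membrane-anchored hyaluronidase. It was at 6.30, 6.13 and 5.68 FPKM in shNC libraries and at 6.85, 5.08 and 7.01 FPKM in shScamp1 libraries. The groups overlapped, since shScamp1 replicate 2 was the lowest and the other shScamp1 libraries were the highest of the 6. The log2 fold change was 0.05 (SE 0.14) over all libraries and 0.20 without shScamp1 replicate 2. TUSC2, which shares 509 exonic bases (11.2%) with HYAL2 on the same strand, was also lowest in replicate 2 among the shScamp1 libraries, at 12.8, 7.26 and 11.7 FPKM in shScamp1 libraries against 10.9 ± 0.459 in shNC libraries (log2 fold change -0.08, adjusted p = 0.825 by limma).

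**Figure D2:**
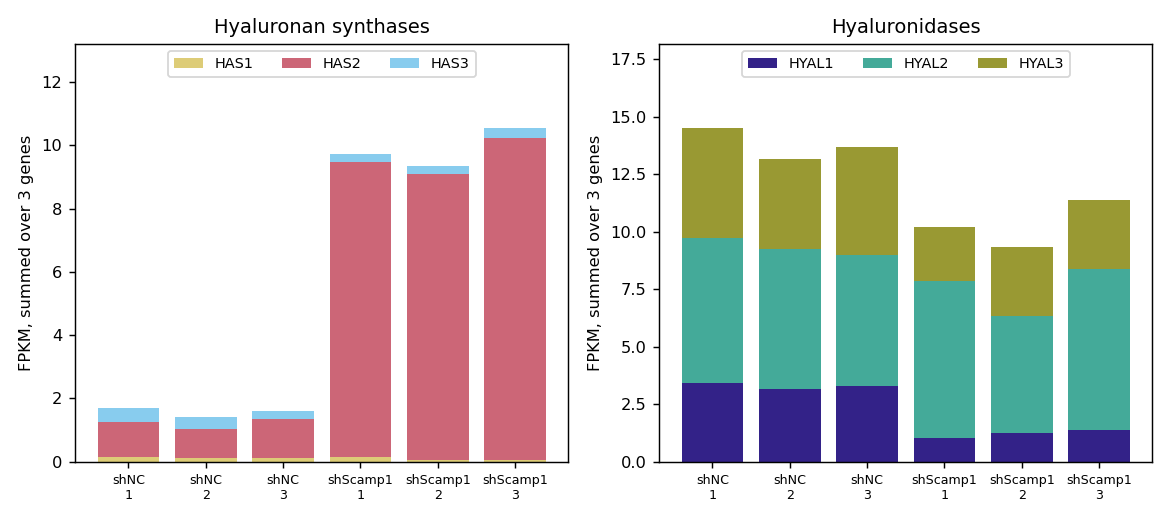
Summed level in FPKM (vertical axis, from 0) of the 3 synthase genes and of the 3 HYAL genes in each of the 6 libraries, stacked by gene. The synthase sum was 1.41 to 1.70 FPKM in shNC and 9.35 to 10.6 FPKM in shScamp1 libraries, nearly all of it HAS2 in the latter, and the HYAL sum was 13.2 to 14.5 and 9.36 to 11.4 FPKM.

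The summed HYAL level was 13.8 ± 0.691 FPKM (SD, n = 3) in shNC cells and 10.3 ± 1.01 FPKM in shScamp1 cells, and the groups did not overlap. HYAL2 held 43.8% ± 2.52 of the sum in shNC libraries and 61.0% ± 6.46 in shScamp1 libraries. HYAL1 held 23.9% ± 0.316 and 11.9% ± 1.71, and HYAL3 held 32.3% ± 2.42 and 27.1% ± 4.80. On the FPKM scale, the HYAL sum exceeded the HAS sum in every shNC library by a wide margin, while in shScamp1 cells the sums were 10.3 and 9.89 FPKM. The HYAL sum leaves out CEMIP (37.5 FPKM in shNC and 41.7 in shScamp1 cells) and its relative CEMIP2 (31.7 and 32.8). These sums therefore do not measure a balance of hyaluronan synthesis and breakdown.

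The other genes around the hyaluronidases were then examined within 50 kb on either side, a window chosen after the values had been seen. Of 9 other protein-coding genes tested there, 1 was lower in shScamp1 cells (NAA80) and 0 were higher, against 5.17% lower and 8.82% higher among all 15556 genes tested. Their median log2 fold change was -0.26, from -0.84 to 0.01, against -0.02 for all genes tested. HYAL1, at -1.37, was outside that range. All 9 were lowest in replicate 2 among the shScamp1 libraries, for example SEMA3B with 14.3, 7.75 and 13.7 FPKM and RASSF1 with 4.78, 2.58 and 4.45 FPKM in the 3 shScamp1 libraries. HYAL2 was also lowest in replicate 2, whereas HYAL1 (1.03, 1.26 and 1.37 FPKM) and HYAL3 (2.33, 3.02 and 3.00 FPKM) were lowest in replicate 1. How often replicate 2 was the lowest among all genes was not counted, so nothing particular to this region is read from it. Without shScamp1 replicate 2 the median of the 9 was -0.14, from -0.63 to 0.17, with 2 called lower and 0 higher. Among all 15458 genes tested without it, 2078 were lower and 2296 higher, and the median was -0.02. The log2 fold change was then -0.13 for SEMA3B (from -0.41), -0.31 for RASSF1 (from -0.58) and -1.39 for HYAL1, and GNAI2, a G protein subunit, then passed the test (log2 fold change -0.23, adjusted p = 0.0280 by limma, against -0.26 and 0.0553 with all libraries).

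**Figure D3:**
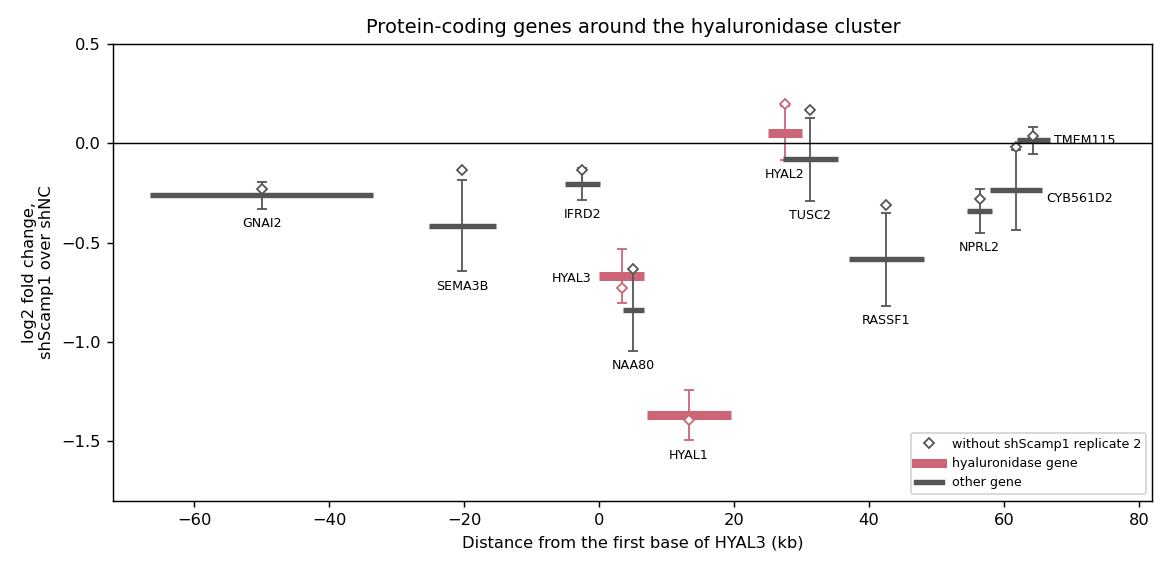
Log2 fold change of shScamp1 over shNC (vertical axis) for the protein-coding genes around the hyaluronidase cluster by distance from the first base of HYAL3 in kb (horizontal axis). Bars span each gene, error bars are SE and diamonds leave out shScamp1 replicate 2. HYAL1 (-1.37) lies below all other genes drawn, HYAL3 (-0.67) lies beside NAA80 (-0.84), and HYAL2 (0.05) lies near 0.

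CEMIP (ENSG00000103888, chromosome 15 from 80779343 to 80951776, forward strand), needed for a route of hyaluronan breakdown that does not depend on HYAL1 or CD44, was the most abundant of the 9 genes in both groups. It was at 36.6, 36.7 and 39.2 FPKM in shNC libraries and at 38.5, 47.9 and 38.9 FPKM in shScamp1 libraries, from 4280 to 4995 reads. Only replicate 2 of the shScamp1 libraries was above the shNC range. The means were 37.5 ± 1.48 and 41.7 ± 5.32 FPKM (SD, n = 3), with a log2 fold change of 0.15 (SE 0.10) that was 0.04 without replicate 2. CEMIP shares 224 exonic bases (2.94%) with MESD on the opposite strand, whose level was 12.1 ± 0.252 and 14.1 ± 1.32 FPKM (adjusted p = 0.151 by limma, or 0.00512 without shScamp1 replicate 2).

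CD44 (ENSG00000026508, chromosome 11 from 35138870 to 35232402, forward strand) encodes the main cell surface receptor for hyaluronan and has 39 annotated transcripts, which the gene-level values do not separate. It was at 9.68, 10.4 and 9.75 FPKM in shNC libraries and at 7.05, 8.04 and 7.04 FPKM in shScamp1 libraries, from 1507 to 1728 and from 1030 to 1101 reads. All shScamp1 libraries were lower, and replicate 2 was the nearest to the shNC range. The means were 9.93 ± 0.376 and 7.38 ± 0.573 FPKM (SD, n = 3), which is 1.35-fold lower, with a log2 fold change of -0.43 (SE 0.08).

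HMMR (ENSG00000072571, chromosome 5 from 163460203 to 163491945, forward strand) encodes RHAMM, a protein of the mitotic spindle that also binds hyaluronan and is made mainly in dividing cells. Its promoter is shown because it carries the motifs typical of genes expressed before mitosis. The sequence is the 250 bases upstream of the RefSeq start (chr5:163460382-163460631, GRCh38.p14, forward strand). Capitals mark the GC box as above, CCAAT boxes (CCAAT or ATTGG; in 32.0% of 35116 windows), and the CHR element of cell cycle genes (TTTGAA or TTCAAA; in 13.3%).
HMMR: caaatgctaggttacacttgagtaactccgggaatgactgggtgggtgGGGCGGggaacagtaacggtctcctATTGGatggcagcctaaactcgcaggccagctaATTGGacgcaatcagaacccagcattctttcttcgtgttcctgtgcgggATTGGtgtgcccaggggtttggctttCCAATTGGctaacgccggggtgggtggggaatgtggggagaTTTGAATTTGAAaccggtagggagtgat
The window holds 1 GC box at -202, 5 CCAAT boxes at -177, -144, -95, -69 and -66, the last 2 of which overlap, and 2 adjoining CHR matches at -28 and -22. A CHR match is not particular to HMMR among the 9 genes, since the HAS1 window also holds 1, at -30. HMMR was at 8.89, 10.2 and 9.41 FPKM in shNC libraries and at 8.82, 10.3 and 9.34 FPKM in shScamp1 libraries. The groups overlapped almost fully, with means of 9.51 ± 0.675 and 9.49 ± 0.751 FPKM (SD, n = 3) and a log2 fold change of -0.0040 (SE 0.09).

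In shNC cells the order of levels was CEMIP, CD44, HMMR, HYAL2, HYAL3, HYAL1, HAS2, HAS3 and HAS1, and only the ranges of the neighbours CD44 and HMMR overlapped. In shScamp1 cells it was CEMIP, HAS2, HMMR, CD44, HYAL2, HYAL3, HYAL1, HAS3 and HAS1, and only the ranges of HAS2 and HMMR overlapped. HAS2 thus went from the seventh to the second place, at a level beside that of HMMR, while HAS3 and HAS1 kept the last places. FPKM is scaled to gene length, which here counts the exonic bases of all annotated transcripts of a gene. That length was 10004 bases for CD44 (39 transcripts) and 4190 for HAS2 (1 transcript). The order between genes can therefore depend on which transcripts are expressed, which was not tested.

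Of the 9 genes, 7 passed the filter on low values, and for 4 of them the groups were apart in FPKM (1 higher, 3 lower), as for 41.4% of all 15556 genes tested (20.4% higher, 21.0% lower). An adjusted p under 0.05 was reached by 4 of the 7 (HAS2 higher, HYAL1, HYAL3 and CD44 lower), against 14.0% of all genes tested (8.82% higher, 5.17% lower). Among all genes 1372 were higher and 805 lower (63.0% higher), a split that became 1137 and 1268 (47.3% higher) when libraries were rescaled to equal total reads. An absolute log2 fold change above 1 as well was reached by 2 (HAS2 and HYAL1), against 3.16% of all genes (2.42% higher, 0.746% lower). For the 7 the median log2 fold change was -0.0040, and that of all genes tested -0.02.

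**Figure D4:**
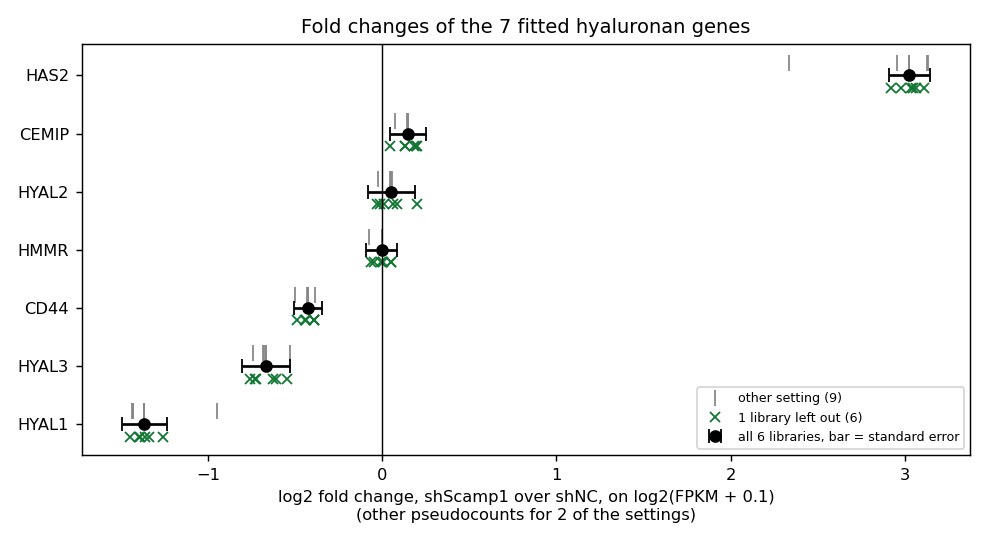
Fitted log2 fold change of shScamp1 over shNC on log2(FPKM + 0.1) (horizontal axis) for the 7 hyaluronan genes that passed the filter, with SE bars. Crosses leave out each library in turn and grey ticks are the 9 other settings, of which the outlying ticks of HAS2 (2.34) and HYAL1 (-0.95) are those with a pseudocount of 1. With a library left out HAS2 lies between 2.92 and 3.11 and HYAL1 between -1.45 and -1.26, while HYAL2, CEMIP and HMMR lie between -0.06 and 0.20.

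The genes whose pattern over the 6 libraries was most like that of HAS2 were sought among 10570 protein-coding genes by the Euclidean distance of log2(FPKM + 0.1) values, each centred on its shNC mean. The nearest were NT5E (distance 0.364), PLAT (0.521), RPTN (0.567), TMPRSS11E (0.768) and IFI6 (0.806). NT5E, the surface enzyme CD73 that makes adenosine, was at 6.20 ± 0.189 and 49.3 ± 1.54 FPKM (SD, n = 3), and PLAT, the tissue plasminogen activator, at 0.981 ± 0.0986 and 9.54 ± 0.862 FPKM. The nearest to HYAL1 included VSNL1 (0.302), REEP2 (0.319), TEAD2 (0.419) and PLTP (0.432). PLTP, the phospholipid transfer protein, was at 4.61 ± 0.208 and 2.03 ± 0.120 FPKM.

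Among genes that supply the precursors of hyaluronan, PGM1 and GPI were lower in shScamp1 cells. Of 12 listed genes from glucose phosphorylation to the UDP-sugars, 11 were tested, 2 were lower and 0 higher (18.2% called, against 14.0% of all genes tested), and their median log2 fold change was 0.07. PGM1, which turns glucose 6-phosphate towards UDP-glucose, fell from 9.47 ± 0.267 to 5.80 ± 0.184 FPKM (SD, n = 3; log2 fold change -0.70, SE 0.06, Benjamini-Hochberg adjusted p = 0.00171 by limma). GPI, which directs the same sugar into glycolysis and towards hexosamines, was at 40.1 ± 1.28 and 31.7 ± 2.39 FPKM (log2 fold change -0.34, adjusted p = 0.0344 by limma), a call that was kept only without shScamp1 replicate 2 when each library was left out (adjusted p from 0.0738 to 0.138 without any 1 of the others). UGDH, which makes UDP-glucuronic acid, was at 5.36 ± 0.165 and 6.21 ± 0.955 FPKM (adjusted p = 0.313 by limma), and GFPT1, the entry enzyme of hexosamine synthesis, at 7.71 ± 0.466 and 9.48 ± 0.527 FPKM (adjusted p = 0.0560). Without shScamp1 replicate 2, 6 genes of this list passed the test. Calls also rose over all genes in that setting, to 4374 of 15458 from 2177 of 15556.

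Of 7 other genes of hyaluronan breakdown in the table, 5 were tested and 0 passed in limma, against 14.0% of all genes tested. At an unadjusted p under 0.05 there were also 0, and with voom 0. With 5 genes, a count of 0 cannot be told apart from that share. They included CEMIP2 (TMEM2), a cell surface hyaluronidase at 31.7 ± 0.598 and 32.8 ± 5.44 FPKM (SD, n = 3), and the lysosomal enzymes HEXA and GUSB, which remove the end sugars of fragments. The median log2 fold change was 0.04. HYAL4 was at 0.00768 ± 0.0133 and 0.0505 ± 0.0242 FPKM, too low to be tested, and SPAM1, the sperm hyaluronidase, was listed at 0.

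Most of the 25 genes for other hyaluronan-binding proteins were not expressed at a level that could be tested. Only 5 passed the filter, and LAYN, TNFAIP6, ITIH1, HAPLN1 and HAPLN4 were listed at 0 in all libraries. Of the 5, 1 was lower and 0 higher (20.0% called, against 14.0% of all genes tested), with a median log2 fold change of -0.26. C1QBP, a mainly mitochondrial protein first described as a binder of complement and hyaluronan, was at 56.5 ± 1.12 and 42.0 ± 3.74 FPKM (SD, n = 3; log2 fold change -0.43, SE 0.08, Benjamini-Hochberg adjusted p = 0.0206 by limma). The C1QBP call was lost without any 1 shNC library or shScamp1 replicate 3 (adjusted p from 0.0621 to 0.0950). TLR4, an innate immune receptor, was at 1.29 ± 0.0990 and 1.81 ± 0.360 FPKM (adjusted p = 0.125).

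Of 16 genes that link CD44 to the cytoskeleton, cleave it or splice it, 13 were tested, 2 were higher and 1 was lower (23.1% called, against 14.0% of all genes tested), with a median log2 fold change of 0.19. EZR encodes ezrin, which ties the tail of CD44 to actin, and it rose from 213, 206 and 213 FPKM in shNC libraries to 393, 389 and 392 FPKM in shScamp1 libraries (log2 fold change 0.89, SE 0.07, Benjamini-Hochberg adjusted p = 0.000857 by limma). Moesin (MSN), a relative of ezrin, was at 27.4, 26.3 and 26.0 FPKM in shNC libraries and at 17.5, 20.6 and 17.6 FPKM in shScamp1 libraries (log2 fold change -0.52, SE 0.08, adjusted p = 0.0117 by limma). Ezrin and moesin thus differed in opposite directions, and the third relative, RDX, was at 3.59 ± 0.209 and 4.11 ± 0.320 FPKM (SD, n = 3; adjusted p = 0.210). ESRP1, the epithelial splicing factor that keeps variant exons in CD44, was at 40.3 ± 1.27 and 54.5 ± 3.13 FPKM (log2 fold change 0.43, SE 0.07, adjusted p = 0.0115 by limma). The MSN call was lost without any 1 shNC library or shScamp1 replicate 3 (adjusted p from 0.0541 to 0.0646), and the ESRP1 call without any 1 shNC library (0.0556 to 0.0674), whereas that of EZR held in each case. Without shScamp1 replicate 2, 7 genes of the list passed, and over all genes 4374 of 15458 did (2177 of 15556 with all libraries). The sheddases ADAM10, ADAM17 and MMP14 did not pass the test with all libraries.

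All 13 partners of HMMR at the spindle were tested, 1 was higher and 0 lower (7.69% called, a smaller share than the 14.0% of all genes tested), with a median log2 fold change of -0.06. NUMA1, which anchors microtubules at the spindle poles, was at 14.2, 13.8 and 15.3 FPKM in shNC libraries and at 19.6, 25.6 and 20.4 FPKM in shScamp1 libraries (log2 fold change 0.59, SE 0.12, Benjamini-Hochberg adjusted p = 0.0215 by limma). That call was lost without any 1 shNC library or shScamp1 replicate 3 (adjusted p from 0.0583 to 0.0964). Without shScamp1 replicate 2, 6 genes of the list passed, and over all genes 4374 of 15458 did (2177 of 15556 with all libraries). TPX2, which recruits AURKA to the spindle, was at 49.6 ± 0.616 and 57.4 ± 9.80 FPKM (SD, n = 3; adjusted p = 0.319), AURKA itself at 23.2 ± 1.01 and 23.5 ± 1.92 FPKM (adjusted p = 0.909), and PLK1 at 19.4 ± 1.16 and 19.6 ± 1.16 FPKM (adjusted p = 0.908).

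Of 14 genes known to regulate the synthases, 13 were tested, 2 were higher and 0 lower (15.4% called, close to the 14.0% of all genes), with a median log2 fold change of 0.16. TEAD1, the DNA-binding partner of YAP1, was at 9.30, 8.89 and 9.46 FPKM in shNC libraries and at 13.9, 24.5 and 15.8 FPKM in shScamp1 libraries (log2 fold change 0.92, SE 0.21, Benjamini-Hochberg adjusted p = 0.0338 by limma). Replicate 2 was the highest of these. USP4, a deubiquitinating enzyme, was at 2.16 ± 0.111 and 2.76 ± 0.0650 FPKM (SD, n = 3; log2 fold change 0.34, SE 0.09, adjusted p = 0.0465 by limma). The TEAD1 call was lost without any 1 shNC library or shScamp1 replicate 3 (adjusted p from 0.0763 to 0.121). That of USP4 was lost without any 1 library other than shScamp1 replicate 2 (0.0991 to 0.162). Without shScamp1 replicate 2, 7 genes of the list passed, and over all genes 4374 of 15458 did (2177 of 15556 with all libraries). YAP1 was at 20.7 ± 0.653 and 23.5 ± 1.30 FPKM (adjusted p = 0.127), STAT3 at 8.91 ± 0.175 and 12.4 ± 2.16 FPKM (adjusted p = 0.0565), and RELA, an NF-kappa B subunit, at 18.2 ± 1.18 and 18.6 ± 0.620 FPKM (adjusted p = 0.793). The transcripts of OGT and OGA, which add and remove O-GlcNAc, were at 27.9 ± 0.525 and 26.2 ± 3.19 FPKM and at 23.6 ± 0.244 and 28.1 ± 2.00 FPKM, and neither passed.

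The sulfated glycosaminoglycans, which are made in the Golgi on proteins, were compared as the nearest relatives of hyaluronan. Of 36 genes for their synthesis, 26 were tested, 3 were higher and 1 was lower (15.4% called, again close to the 14.0% of all genes), with a median log2 fold change of -0.02. CHST11, which sulfates chondroitin, rose from 5.48, 5.51 and 5.07 FPKM in shNC libraries to 9.54, 14.4 and 11.0 FPKM in shScamp1 libraries (log2 fold change 1.09, SE 0.15, Benjamini-Hochberg adjusted p = 0.00727 by limma). CHPF, a factor for chondroitin chain growth, rose from 46.9, 48.9 and 54.2 FPKM to 80.6, 87.6 and 82.8 FPKM (log2 fold change 0.74, SE 0.08, adjusted p = 0.00269 by limma). CSGALNACT2, which starts chondroitin chains, was at 2.24 ± 0.241 and 3.06 ± 0.196 FPKM (SD, n = 3; log2 fold change 0.43, adjusted p = 0.0468 by limma). GLCE, the epimerase of heparan sulfate, was at 12.4 ± 0.857 and 8.78 ± 0.707 FPKM (log2 fold change -0.49, adjusted p = 0.0179 by limma). The calls of CHST11 and CHPF held when each library was left out, that of CSGALNACT2 was lost without any 1 library other than shScamp1 replicate 2 (adjusted p from 0.0653 to 0.166), and that of GLCE was lost without any 1 shNC library or shScamp1 replicate 3 (0.0503 to 0.0855).

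**Figure D5:**
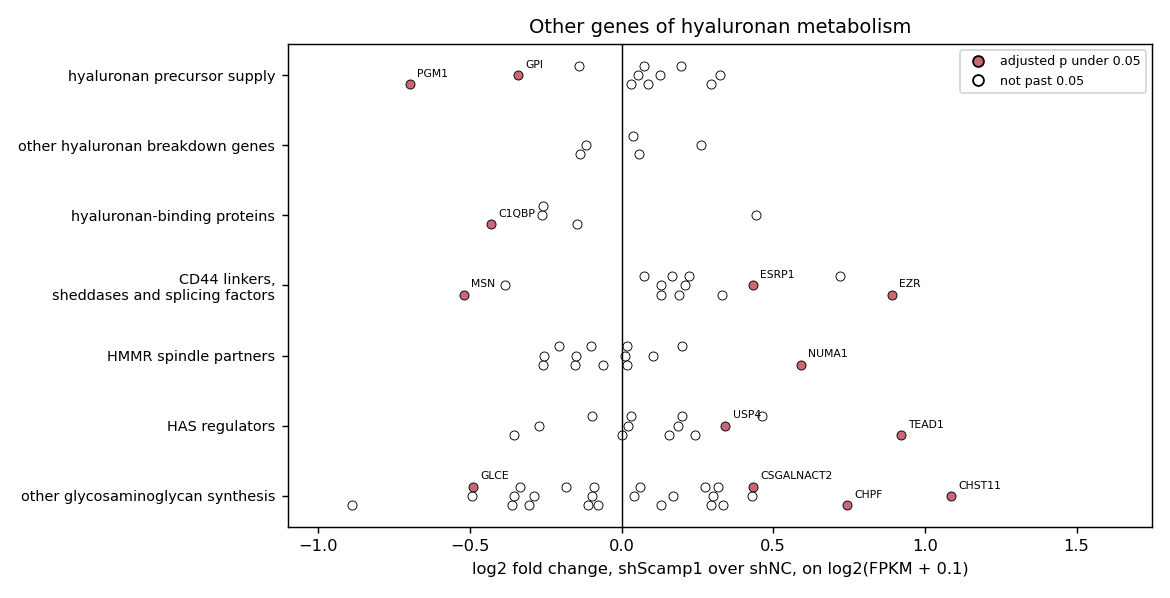
Log2 fold change of shScamp1 over shNC for each tested gene of the 7 pathway lists (horizontal axis, points in rows by list, filled and named where the adjusted p by limma was under 0.05). CHST11 (1.09), TEAD1 (0.92), EZR (0.89) and CHPF (0.74) are the called genes farthest above 0 and PGM1 (-0.70) the called gene farthest below.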

How the data were processed

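The authors deposited FPKM per gene for 58735 genes in 6 libraries. The submitters' processing notes name HISAT2 2.0.5, featureCounts 1.5.0-p3, DESeq2 1.20.0 and hg38, and gene coordinates equalled GENCODE 29 for all 58735 genes. FPKM times gene length was a whole multiple of 1 step per library (within 0.02 reads) for 100% of values above 0, which gave the reads on each gene, and the deposited FPKM already held a size factor for each library.

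The 15556 genes that averaged 0.5 FPKM or more were fitted with limma 3.58.1 in R 4.3.3 (lmFit, eBayes with a mean-variance trend) on log2(FPKM + 0.1), which understates changes of low genes, with Benjamini-Hochberg adjustment over all of them. Fold changes given for the hyaluronan genes come from the same fit. Tables, reads and figures were made in Python 3.11.15 with pandas 2.3.3. The fit was also run on simulated reads with the same spread for all genes and no outlying library. That setting differs from these data, and nothing is drawn from it here. The hyaluronan genes, pathway lists and marker lists were chosen with earlier results of these data known, and no list was tested as a set. Named were the 9 genes, SCAMP1, genes whose annotated span overlaps them, up to 4 called genes per list (averaging 1 FPKM or more, with the largest absolute log2 fold changes), and the 5 nearest profiles; the other genes named, including those within 50 kb of the hyaluronidases and the uncalled list members, were chosen after their values were seen. Some genes under these rules are not reported here. Promoter windows were found for 8 of the 9 genes. Alternatives were other pseudocounts (1 and 0.01), no filter or a stricter one (1 FPKM), no trend, scaling by total reads, voom on recovered reads, protein-coding genes only, the replicate number as a block, and leaving out each library.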

Additional observations from a re-analysis of the deposited data

How the results depend on the processing

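Over the 15 alternatives the log2 fold change was 2.34 to 3.14 for HAS2, -1.45 to -0.95 for HYAL1, -0.76 to -0.53 for HYAL3 and -0.50 to -0.39 for CD44; their groups do not overlap, which fixes most of these directions. HAS1 and HAS3 could be fitted only with no filter on low values, at -0.23 and -0.25, and their reads limit what can be said. Of 4 hyaluronan genes past an adjusted p of 0.05 by limma, 2 to 4 passed with 1 library left out (2 without any 1 shNC library or shScamp1 replicate 3), which is a description only. HAS2 and HYAL1 passed in all 15 alternatives, and CD44 and HYAL3 each in 9 of 15. The count over all genes was 817 to 4374 with 1 library left out (2177 with all), lowest without shNC replicate 2 (831, 859 and 1029 without shNC replicates 1 and 3 and shScamp1 replicate 3) and highest without shScamp1 replicate 2. Left-out ranges were 1 to 6 for precursor supply (2 with all libraries), 0 to 1 for hyaluronan-binding proteins (1), 1 to 7 for CD44 linkers, sheddases and splicing factors (3), 0 to 6 for HMMR partners (1), 0 to 7 for HAS regulators (2) and 2 to 6 for other glycosaminoglycans (4).

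Genes also past a log2 fold change of 1 numbered 248 with a pseudocount of 1 (492 with 0.1). HAS regulators called were 1 with a pseudocount of 1, 1 with 0.01, 1 without the trend, and 0 with no filter (9 at an unadjusted p under 0.05). Precursor genes called were 1 with no filter and 1 without the trend. Scaling by total reads gave 2 binding proteins and 2 HMMR partners, testing protein-coding genes only gave 2 HMMR partners and 7 other glycosaminoglycan genes, and voom gave 7 of the latter.

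No pairing of the samples by replicate number was seen: correlations of same-numbered libraries' deviations were -0.035, 0.032 and 0.067, and not every library correlated best with its own number. With 3 libraries per group these values cannot exclude a pairing. With the number as a block, 958 genes passed, and 2 hyaluronan genes, 1 precursor gene, 1 CD44 linker, 2 other glycosaminoglycan genes, 0 binding proteins (1 at an unadjusted p under 0.05), 0 HMMR partners (2) and 0 HAS regulators (6). Uncalled neighbours turned direction: CHTF8 to -0.0651 with total reads and, with 1 library left out, CHTF8 from -0.0704 to 0.0621 (below 0 without shNC replicate 1 or shScamp1 replicate 2), TUSC2 from -0.2374 to 0.1681 (above 0 without shScamp1 replicate 2), and AC027808.2, a low antisense gene in CEMIP, from -0.0064 (without shNC replicate 1) to 0.8686. Where no construction of an alternative shows it, the cause was not tested.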
